A study of Mus musculus with 4 samples.

Results

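The NR4A, NFAT and activation factors are 9 transcription factor genes through which a T cell answers its antigen receptor: Nr4a1, Nr4a2 and Nr4a3, Nfatc1, Nfatc2 and Nfatc3, and Irf4, Batf and Myc. They were taken by symbol from the deposited table of read counts, where all 9 of 9 were found among 24062 genes. The cells were splenic gBT-I, CD8+ T cells whose transgenic receptor sees the gB498-505 peptide of herpes simplex virus. The tested comparison set cells from germ-free (GF) C57BL/6 recipients, 2 libraries, against cells from specific-pathogen-free (SPF) C57BL/6 recipients, 2 libraries. In both groups the cells came from SPF gBT-I tg donors and were activated in culture with peptide and LPS. They were given IL-1, as the labels name it, on days 2 and 3, were injected intravenously on day 4, and were enriched and sorted 7 days after transfer. All cells thus share 1 receptor and an earlier life in SPF mice, and the labels give no age or sex and do not say whether the 2 replicates of a group came from separate recipients. P-values therefore measure the spread between these libraries, which may be technical.

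When a T cell receptor binds its ligand, calcium enters the cell and switches on the phosphatase calcineurin, which strips phosphates from the NFAT proteins so that they move into the nucleus. NFAT works there with AP-1, and NFAT acting without AP-1 is tied to unresponsive and exhausted T cell states. The NR4A proteins are orphan nuclear receptors whose genes are switched on within minutes of receptor signalling and which restrain effector programs. BATF and IRF4 bind DNA together at composite sites and drive effector differentiation, and MYC sets the growth and metabolism of activated cells. NFAT proteins are regulated by their place in the cell, which messenger RNA does not report.

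Total counts were 14219354 and 14431533 in GF replicates 1 and 2 and 11544960 and 14026051 in SPF replicates 1 and 2. Replicates stood apart in either group. The median absolute log2 difference between replicates 2 and 1 was 0.29 in GF and 0.43 in SPF, while GF and SPF differed by 0.37 when replicate 1 was set against replicate 1 and by 0.19 when replicate 2 was set against replicate 2. All 10 CD8 T cell markers examined were above 1 CPM (counts scaled to the library total) in every library, and they summed to between 5026 and 5750 CPM in GF and between 5289 and 6663 CPM in SPF. Markers of B and plasma cells, 16 genes led by Cd79b, summed to 152 and 31.4 CPM in GF replicates 1 and 2 and to 123 and 29.6 CPM in SPF replicates 1 and 2. Cd79b alone held 42.5 and 25.6 CPM of this in GF and 44.9 and 23.4 CPM in SPF. It thus made up most of the sum in the libraries numbered 2. The B cell gene Ms4a1 had 0 counts in both libraries numbered 2. The macrophage list summed to between 555 and 979 CPM in GF and between 778 and 1262 CPM in SPF. Nearly all of it was Ly6c2, which memory CD8 T cells also express, and its other 11 genes held 0 in all libraries (Fcgr1) or at most 10.5 CPM (Cd68). Of its 4 tested genes, 3 were lower in replicate 2 in both groups, and 1, Cd68, was higher. Lyz2 and Mpeg1, named after their values were seen, were among the 3. Lyz2 had 65 and 0 counts in GF replicates 1 and 2 and 48 and 8 in SPF replicates 1 and 2. Mpeg1 had 28 and 0 counts in GF and 18 and 2 in SPF. The dendritic cell list, mostly Itgax, which activated CD8 T cells carry, summed to between 783 and 986 CPM in GF and between 398 and 711 CPM in SPF. Xcr1 of that list, named after its values were seen, was present in every library. It measured 19.5 and 13.5 CPM in GF replicates 1 and 2 and 20.3 and 13.5 CPM in SPF replicates 1 and 2. Flt3 had no more than 2 counts in any library. Neutrophil genes, led by Cxcr2, summed to at most 0.35 CPM in GF and 0.95 CPM in SPF, and erythroid genes, led by Alas2, to at most 1.59 and 1.65 CPM, with the 4 globin genes at 0. NK cell genes, led by Klrb1c, summed to 56.8 and 48.4 CPM in GF and to 97.7 and 72.3 CPM in SPF with Klra4 and Klra8 at 0, and CD4 and regulatory T cell genes, led by Zbtb7b, to 82.1 and 108 CPM in GF and 112 and 129 CPM in SPF, with Cd4 at no more than 6 counts.

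Of the 9 genes, 7 had higher and 2 had lower fitted values in GF than in SPF, where 49.7% of all tested genes had higher values, with a median log2 fold change of 0.32, against -0.00 over the 11271 genes tested. The median of the 9 was -0.011 without GF replicate 2, 0.039 without SPF replicate 1, 0.46 without GF replicate 1 and 0.66 without SPF replicate 2. With a transcript length trend removed from each library it was 0.11. Nr4a1 and Nr4a2 had the largest differences, and Batf and Myc were the genes with lower values. With p-values adjusted by Benjamini-Hochberg over all tested genes, 0 of the 9 passed the quasi-likelihood test of edgeR (adjusted p between 0.855 and 0.943), where the share of all genes called was 0%. At an unadjusted p under 0.05 the test counted 363 genes, 3.22% of those tested (2.17% higher in GF), and 1 of the 9, Nr4a1, which was higher. In 2 of the 9, Nr4a1 and Irf4, both GF libraries lay above both SPF libraries, as in 16.8% of all tested genes, and in 1, Batf, both lay below, as in 16.4%. All 9 passed the filter on low counts. With 2 libraries a group, the smallest p of a two-sided exact permutation test is 0.33, so the calls rest on the fit across genes.

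**Figure D1:**
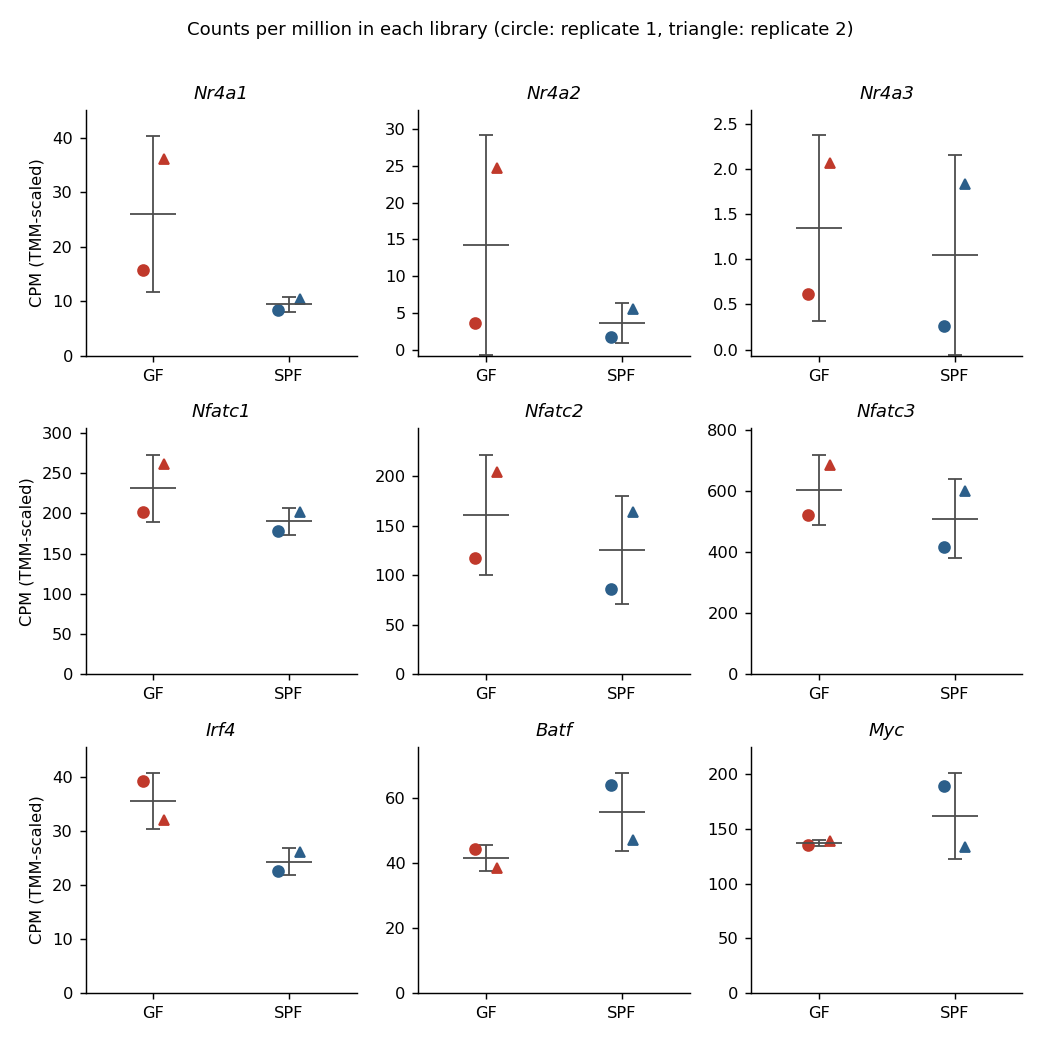
CPM (counts over TMM-scaled library sizes, vertical axes) of the 9 genes in GF (red) and SPF (blue) libraries, with circles for replicate 1, triangles for replicate 2, and the group mean ± SD (n = 2 each) in grey. Nr4a1 and Irf4 have both GF points above both SPF points, Batf has both below, and in the NR4A and NFAT genes the triangle lies above the circle in both groups.

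Nr4a1 (chr15:101254269-101274795 in GENCODE M21, GRCm38, plus strand) encodes NUR77, an orphan nuclear receptor widely used as a reporter of recent T cell receptor signalling. It measured 15.8 and 36.1 CPM in GF replicates 1 and 2, against 8.47 and 10.4 CPM in SPF replicates 1 and 2. Both GF libraries were above both SPF libraries, and GF replicate 2 stood well above the rest. The log2 fold change was 1.45 (SE 0.45, 95% interval 0.31 to 2.60), with an unadjusted p of 0.0217, rank 129 of 11271, and an adjusted p of 0.855 by edgeR. GF exceeded SPF by 0.89 among the libraries numbered 1 and by 1.78 among those numbered 2, on the log2 scale. Without GF replicate 2 the fold change was 0.74 (SE 0.51), and without SPF replicate 2 it was 1.62 (SE 0.41) and passed the edgeR test (adjusted p = 0.0032, in a range of 0.00148 to 1 over 16 alternatives), as did 7.14% of all tested genes upward and 4.65% downward. Fits without a library leave a lone library in its group, which is assumed to vary like the other group.

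Nr4a2 (chr2:57106830-57124003, minus strand) encodes NURR1, the close relative of NUR77. It measured 3.62 and 24.7 CPM in GF replicates 1 and 2, against 1.75 and 5.51 CPM in SPF replicates 1 and 2. The groups overlapped, since GF replicate 1 lay below SPF replicate 2, and GF replicate 2 was higher than any other library. Its log2 fold change was 1.95 with an SE of 1.01 (95% interval -0.60 to 4.50, edgeR adjusted p = 0.855). Within the libraries numbered 1 it was 0.99 and within those numbered 2 it was 2.14. It passed without SPF replicate 2 (3.01, edgeR adjusted p = 1.31e-05, in a range up to 1), while without GF replicate 2 it was -0.01 (SE 0.78).

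Nr4a3 (chr4:48045153-48086447, plus strand) encodes NOR1, the remaining receptor of the family. It was near the floor, with 9 and 29 counts (0.61 and 2.07 CPM) in GF replicates 1 and 2 and 3 and 26 counts (0.26 and 1.84 CPM) in SPF replicates 1 and 2. The libraries numbered 2 were the high ones in both groups, and the groups overlapped. The ratio of replicate 2 to replicate 1 was 3.17 in GF (exact 95% counting interval 1.46 to 7.62) and 7.13 in SPF (2.19 to 36.8). The log2 fold change of GF over SPF was 0.32 with a 95% interval of -2.21 to 2.84, was -0.79 without GF replicate 2 and -0.45 without SPF replicate 1, and so had no settled direction. Summed, the 3 NR4A genes held 20.1 and 62.9 CPM in GF and 10.5 and 17.8 CPM in SPF, replicates 1 and 2 in that order.

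The promoters of the 3 NR4A genes are shown as sequences, and a link between them and the values of these genes was not tested. The sequences are RefSeq's (GRCm38.p6), end before the RefSeq transcription start and overlap no GENCODE exon of their gene. Promoter entries existed for 7 of the 9 genes. Only the 3 of the NR4A genes were counted by gene and are printed, while all entries were searched for the background shares given below. Capitals mark TGACG or its reverse complement CGTCA, the core of the cAMP response element that CREB and related factors bind. The Nr4a1 window lies at chr15:101266596-101266845 on the plus strand, inside the GENCODE span of the gene, whose first exon starts farther upstream, that of Nr4a2 at chr2:57124004-57124253 on the minus strand and that of Nr4a3 at chr4:48045055-48045152 on the plus strand.
Nr4a1: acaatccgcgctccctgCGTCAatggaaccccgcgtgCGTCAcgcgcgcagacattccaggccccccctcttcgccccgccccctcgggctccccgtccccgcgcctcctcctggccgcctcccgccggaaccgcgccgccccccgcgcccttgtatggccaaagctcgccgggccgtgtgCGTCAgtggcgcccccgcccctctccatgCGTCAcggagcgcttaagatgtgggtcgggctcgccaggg
Nr4a2: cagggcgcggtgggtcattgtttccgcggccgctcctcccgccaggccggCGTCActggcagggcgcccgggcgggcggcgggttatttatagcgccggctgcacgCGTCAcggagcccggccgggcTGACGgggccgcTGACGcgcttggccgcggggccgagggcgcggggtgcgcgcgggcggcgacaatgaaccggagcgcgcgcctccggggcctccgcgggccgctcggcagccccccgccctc
Nr4a3: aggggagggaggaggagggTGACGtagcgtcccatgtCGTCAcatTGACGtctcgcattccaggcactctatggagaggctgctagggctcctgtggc
Matches on either strand numbered 4 in the 250 bases of Nr4a1, 4 in the 250 bases of Nr4a2 and 3 in the 98 bases of Nr4a3. Of 32851 promoter windows of 250 bases, 17.8% held at least 1 match and 0.137% at least 4. Of the same promoters cut to the 98 bases farthest from the start, 5.22% held at least 1 and 0.0274% at least 3. The cut-offs of 4 and 3 were set from the match counts of these NR4A genes themselves. None of the 3 sequences held the full TGACGTCA, which 1.55% of the 250-base windows did. The promoters compared were not matched for base composition, and both TGACG and CGTCA hold a CG. A match describes letters, not a bound factor.

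On the log2 scale replicate 2 exceeded replicate 1 by 1.18 in GF and 0.30 in SPF for Nr4a1, by 2.72 in GF and 1.58 in SPF for Nr4a2, and by 1.54 in GF and 2.28 in SPF for Nr4a3. Of the 9 genes, 6 were higher in replicate 2 in both groups (the NR4A and NFAT genes), as were 38.8% of all tested genes, and 1, Batf, was lower in replicate 2 in both, as were 40.4%.

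Genes induced within minutes by stimulation or by tissue dissociation also differed between the replicates. Of the 15 tested members of that list, 12 were higher in replicate 2 in both groups and 0 lower, beside 38.8% and 40.4% of all tested genes. The median log2 difference of the list was 0.74 in GF and 0.58 in SPF. The AP-1 subunit gene Fos, named after its values were seen, measured 46.0 and 185 CPM in GF replicates 1 and 2, against 4.28 and 135 CPM in SPF replicates 1 and 2. Fosb, named on the same footing, measured 11.3 and 89.9 CPM in GF and 1.05 and 46.7 CPM in SPF. Both were lowest in SPF replicate 1, as the NR4A genes were. Between groups, 12 of the 15 were higher in GF and 3 lower, with a median log2 fold change of 0.47 that was -0.34 without GF replicate 2, -0.033 without SPF replicate 1, 0.91 without GF replicate 1 and 1.06 without SPF replicate 2. By smallest p the list gave Ier3 (-0.78, SE 0.32), the mRNA decay factor gene Zfp36 (0.58, SE 0.33), Egr1 (0.74, SE 0.46) and Junb (0.57, SE 0.43). None of the list passed the test. Both GF libraries lay above both SPF libraries in 0 of the 15 and below them in 2, beside 16.8% and 16.4% of all tested genes. The part of this stimulation or dissociation program in the NR4A values was not tested.

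**Figure D2:**
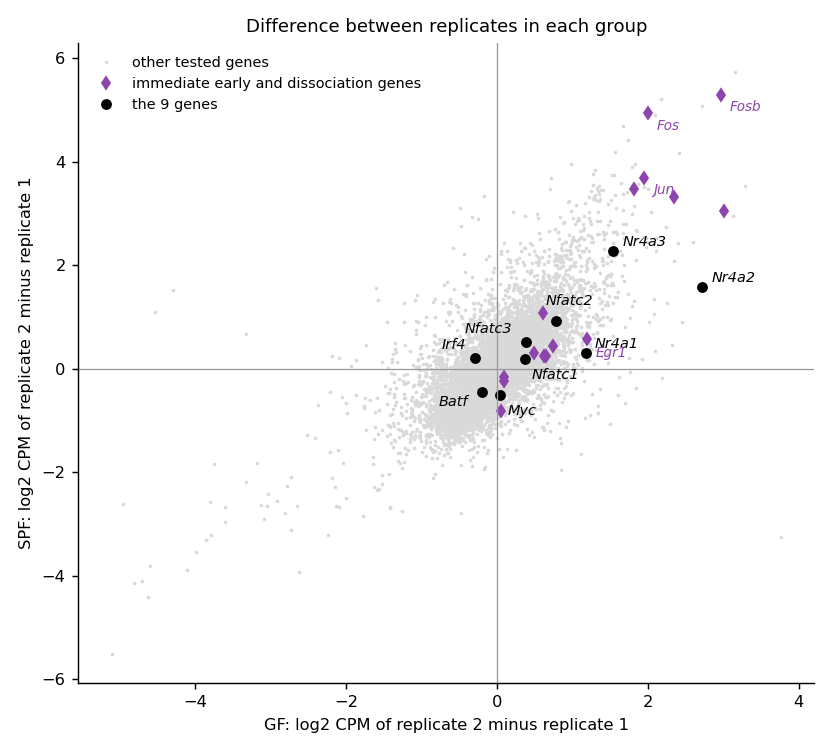
Log2 CPM of replicate 2 minus replicate 1 in GF (horizontal axis) and in SPF (vertical axis) for the 9 genes (black), 15 immediate early and dissociation genes (purple diamonds) and the other tested genes (grey). Nr4a2 and Nr4a3 lie toward the upper right, on the side of Fos and Fosb, and Irf4 and Batf lie left of 0 on the horizontal axis.

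By the root mean square difference of centred log2 CPM over the 4 libraries, the genes whose pattern lay closest to Nr4a1 were Gm19757 (0.14), the fractalkine receptor gene Cx3cr1 (0.19) and the calcium pump gene Atp2a1 (0.19). Cx3cr1 measured 8.94 and 15.7 CPM in GF and 4.36 and 6.50 CPM in SPF. For Nr4a2 they were Ccin (0.31), Chrna2 (0.45) and Slain1os (0.46), each under 5 CPM in every library. For Nr4a3 they were Zbtb37 (0.07), the telomerase gene Tert (0.07) and Psme2b (0.09). No NR4A gene was among the nearest 3 of another. With 10854 genes ranked over 4 libraries, this cannot decide whether the NR4A genes share a pattern.

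All 3 NFAT genes had slightly higher fitted values in GF, none passed the test, and for Nfatc2 and Nfatc3 the difference between recipients was smaller than that between the replicates of either group. Nfatc3 (chr8:106058840-106130537 in GENCODE M21, GRCm38, plus strand), which encodes NFAT4, a form prominent in thymocytes, measured 523 and 687 CPM in GF replicates 1 and 2, against 418 and 602 CPM in SPF replicates 1 and 2. GF replicate 1 lay below SPF replicate 2, so the groups overlapped, with a log2 fold change of 0.25 (SE 0.29). Of its exons, 219 bases overlap those of Esrp2 on the opposite strand, but Esrp2 had no more than 19 counts in any library.

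Nfatc2 (chr2:168476410-168601657, minus strand) encodes NFAT1, the form already present in resting T cells. It measured 118 and 204 CPM in GF replicates 1 and 2, against 86.7 and 164 CPM in SPF replicates 1 and 2. The libraries numbered 2 were the high ones in both groups, by 0.79 in GF and 0.92 in SPF on the log2 scale, and the groups overlapped. The log2 fold change of GF over SPF was 0.36 (SE 0.42), with 0.44 within number 1 and 0.32 within number 2. It was -0.02 without SPF replicate 1 and -0.09 without GF replicate 2.

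Nfatc1 encodes NFAT2, whose short isoform is induced by NFAT itself in an autoregulatory loop. It measured 202 and 261 CPM in GF replicates 1 and 2, against 178 and 202 CPM in SPF replicates 1 and 2. GF replicate 1 and SPF replicate 2 were level, SPF replicate 1 was lowest and GF replicate 2 highest. GF over SPF gave a log2 fold change of 0.28 (SE 0.23, 95% interval -0.30 to 0.87). Counts per gene do not separate its isoforms.

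The NFAT differences were smaller once a transcript length trend was removed. The 3 genes have exonic lengths of 7433 (Nfatc1), 8367 (Nfatc2) and 6167 bases (Nfatc3), against a median of 3216 over tested genes, and differences between libraries correlated with exonic length across 11194 genes (Spearman's rho 0.52 for replicate 2 minus 1 in GF, 0.57 in SPF and 0.41 for GF minus SPF; genes share libraries and are not replicates). With a smooth length trend removed from each library the log2 fold changes were 0.02 for Nfatc1, 0.11 for Nfatc2 and 0.06 for Nfatc3, while Nr4a1 had 1.505, Nr4a2 1.90 and Irf4 0.45. Nfat5, the relative that answers osmotic stress and lacks calcineurin control, measured 118 and 295 CPM in GF and 114 and 231 CPM in SPF, replicates 1 and 2 in that order. Its groups overlapped (log2 fold change 0.26, SE 0.54). Nfatc4 had 0 counts in all 4 libraries, where 3 counts would be 0.208 to 0.211 CPM in GF and 0.214 to 0.26 CPM in SPF, a limit of counting error only.

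Irf4 (chr13:30749226-30766976, plus strand), the interferon regulatory factor whose level follows receptor strength in CD8 T cells, measured 39.3 and 32.0 CPM in GF replicates 1 and 2, against 22.5 and 26.1 CPM in SPF replicates 1 and 2. Both GF libraries were above both SPF libraries, and the SD of 5.15 CPM in GF and 2.50 CPM in SPF was under the difference of the means, 35.6 against 24.3 CPM. The log2 fold change was 0.55 (SE 0.24, 95% interval -0.05 to 1.16, edgeR unadjusted p = 0.0659, adjusted p = 0.855). It was 0.80 within number 1 and 0.29 within number 2, and between 0.40 and 0.69 with each library left out. Irf4 is also expressed by B and plasma cells, whose markers were higher in the libraries numbered 1 of both groups. These markers summed to 152 and 31.4 CPM in GF replicates 1 and 2 and to 123 and 29.6 CPM in SPF replicates 1 and 2. In the libraries numbered 2 most of the sum was Cd79b (25.6 CPM in GF and 23.4 CPM in SPF). The part of B and plasma cells in the Irf4 values was not tested. In bulk samples, fewer cells of a type and less RNA per cell cannot be told apart.

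Batf (chr12:85686669-85709087, plus strand), the AP-1 family member that pairs with JUN proteins and works with IRF4, had lower values in GF. It measured 44.1 and 38.5 CPM in GF replicates 1 and 2, against 64.0 and 47.0 CPM in SPF replicates 1 and 2. Both GF libraries were below both SPF libraries, and SPF replicate 1 stood highest. Its log2 fold change was -0.43 (SE 0.24, 95% interval -1.04 to 0.19, edgeR adjusted p = 0.855), with -0.54 within number 1 and -0.29 within number 2. Batf is the shortest of the 9, at 955 exonic bases, and with the length trend removed its log2 fold change was -0.07 (SE 0.18).

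Myc (chr15:61985391-61990374, plus strand), whose protein drives the growth of dividing T cells, measured 135 and 139 CPM in GF replicates 1 and 2, against 190 and 134 CPM in SPF replicates 1 and 2. The GF libraries were level with SPF replicate 2, and SPF replicate 1 stood above the other 3. The log2 fold change was -0.24 (SE 0.25, 95% interval -0.86 to 0.38). It was -0.49 within number 1, 0.06 within number 2, and 0.04 without SPF replicate 1.

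**Figure D3:**
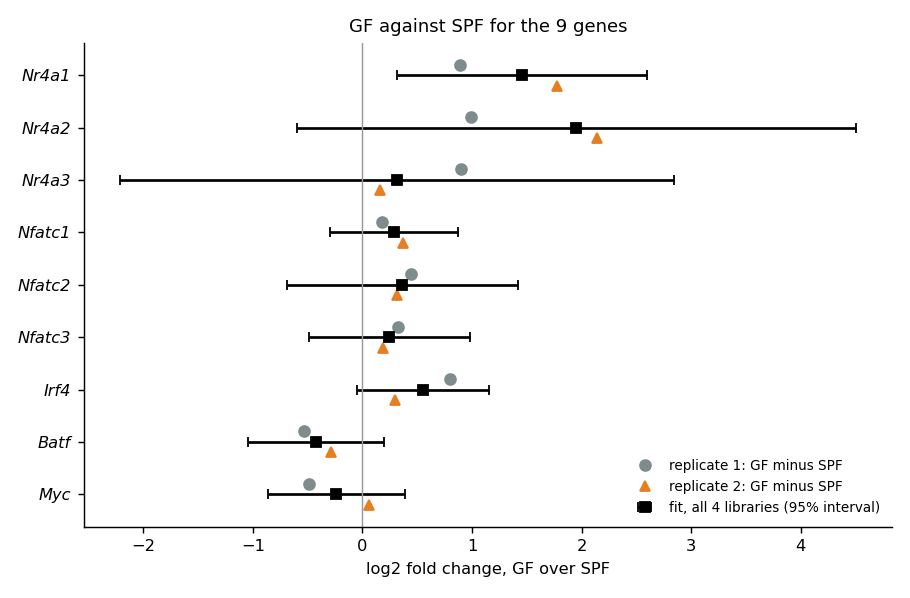
Log2 fold change of GF over SPF (horizontal axis) for the 9 genes, with the edgeR estimate and its 95% interval (black squares) and the difference within replicate 1 (grey circles) and within replicate 2 (orange triangles). The interval of Nr4a1, 0.31 to 2.60, stays above 0, those of the other 8 include 0, and Myc has its within-number values on both sides of 0.

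Levels were compared between genes as CPM per kilobase of exon. In GF the order was Nfatc3 (98.1 ± 18.8), Myc (56.0 ± 1.2), Batf (43.2 ± 4.2), Nfatc1 (31.1 ± 5.6), Nfatc2 (19.2 ± 7.3), Nr4a1 (9.70 ± 5.35), Irf4 (7.48 ± 1.08), Nr4a2 (3.79 ± 3.99) and Nr4a3 (0.24 ± 0.18; SD, n = 2). Of neighbours in that order, Nr4a1 and Irf4 had overlapping libraries and the other pairs did not. In SPF the order was Nfatc3 (82.7 ± 21.1), Myc (66.1 ± 16.2), Batf (58.1 ± 12.6), Nfatc1 (25.6 ± 2.3), Nfatc2 (14.96 ± 6.51), Irf4 (5.10 ± 0.52), Nr4a1 (3.53 ± 0.52), Nr4a2 (0.97 ± 0.71) and Nr4a3 (0.18 ± 0.19). There the top 3 overlapped with their neighbours in turn and the others did not. Nr4a1 stood above Irf4 by mean in GF and below it in SPF, the sole exchange of places.

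**Figure D4:**
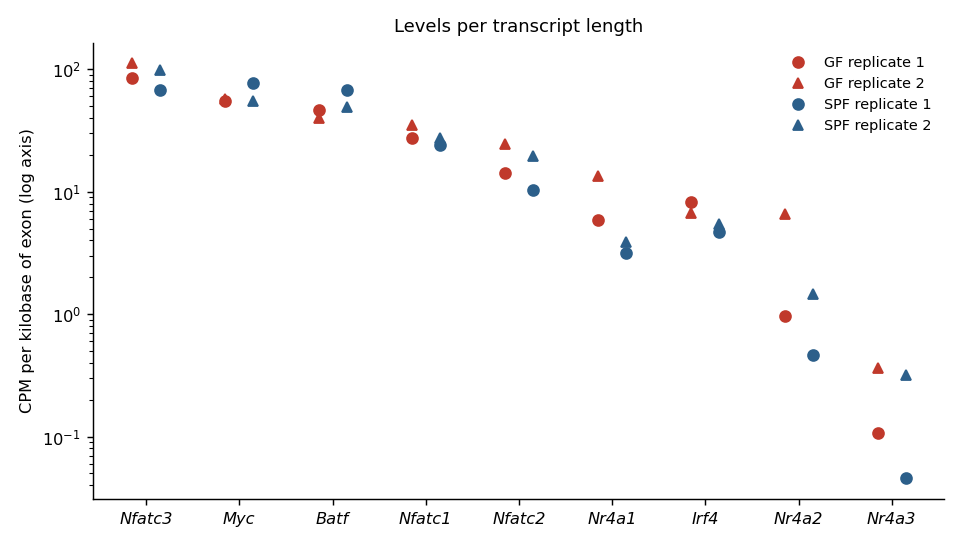
CPM per kilobase of exon (vertical log axis) of the 9 genes, ordered by their GF mean, in GF (red) and SPF (blue) libraries, with circles for replicate 1 and triangles for replicate 2. Levels span from under 1 for Nr4a3 to 98.1 for the GF mean of Nfatc3, and the 2 replicates lie farthest apart in Nr4a2 and Nr4a3.

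The genes around these factors were described by list, by counts and medians alone, and no gene of any list passed the test over all genes. For calcium entry and calcineurin, the steps that free NFAT, 9 of 16 genes were higher in GF and 7 lower, with a median log2 fold change of 0.11 that was -0.022 with the length trend removed, -0.064 without GF replicate 2 and 0.041 without SPF replicate 1. Ppp3ca, a catalytic subunit of calcineurin, measured 80.2 and 79.0 CPM in GF, against 58.2 and 57.0 CPM in SPF, replicates within 1 group nearly level (log2 fold change 0.47, SE 0.19, edgeR unadjusted p = 0.0559). Of the calcium channel genes, Orai1 (1875 exonic bases) and Orai2 (4080 exonic bases) had values in opposite directions. Orai3, named after its values were seen, had a log2 fold change of -0.28 (SE 0.29), and its groups overlapped. Orai1 measured 28.8 and 28.5 CPM in GF against 54.4 and 32.8 CPM in SPF, and Orai2 372 and 399 CPM in GF against 202 and 343 CPM in SPF, neither with overlap between the groups. The calmodulin gene Calm2 had -0.45 (SE 0.32).

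Among genes that restrain calcineurin and NFAT, 9 of 14 tested were higher and 5 lower (median 0.09, which was -0.053 without GF replicate 2, 0.0015 without SPF replicate 1, 0.21 without GF replicate 1, 0.22 without SPF replicate 2 and -0.032 with the length trend removed). Rcan3, a calcineurin inhibitor of the calcipressin family, measured 24.2 and 17.4 CPM in GF, against 9.08 and 10.9 CPM in SPF, with no overlap (log2 fold change 1.05, SE 0.30, edgeR unadjusted p = 0.0152, adjusted p = 0.855). Its paralog Rcan1, which NFAT itself induces, measured 8.06 and 6.94 CPM in GF, against 10.7 and 9.96 CPM in SPF (-0.46, SE 0.29). Cabin1, another calcineurin inhibitor, had 0.71 (SE 0.40), and Ppia, the cyclophilin bound by ciclosporin, -0.52 (SE 0.35).

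Known NFAT target genes were split, with 8 of 15 tested higher and 7 lower (median 0.04). The costimulatory receptor gene Tnfrsf9 (4-1BB) measured 2.59 and 4.08 CPM in GF, against 9.52 and 6.00 CPM in SPF. Fasl had a log2 fold change of -0.56 (SE 0.22), with both GF libraries lower, while the inhibitory receptor genes Pdcd1 (0.95, SE 0.35) and Ctla4 (0.55, SE 0.21) had both GF libraries higher. These 4 had unadjusted p between 0.0341 and 0.0491 by edgeR. Il2 had 0 counts in all libraries. The median of the list changed sign with the libraries used: it was 0.50 without GF replicate 1, -0.35 without GF replicate 2, 0.25 without SPF replicate 1, -0.26 without SPF replicate 2 and 0.45 with the length trend removed.

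Among partners and co-regulators of NR4A receptors, 10 of 13 tested were higher and 3 lower (median 0.38). That median was 0.052 without SPF replicate 1, 0.11 without GF replicate 2 and 0.17 with the length trend removed. Rxra, the retinoid X receptor that pairs with NUR77 and NURR1, measured 41.8 and 53.3 CPM in GF, against 17.4 and 28.3 CPM in SPF, with no overlap (log2 fold change 1.06, SE 0.32, edgeR unadjusted p = 0.0191, adjusted p = 0.855). Mef2a and Mef2d, factors that switch on Nr4a1 in thymocytes, had 0.39 (SE 0.20) and 0.57 (SE 0.45). In this list 11 of 13 genes were higher in replicate 2 in both groups, beside 38.8% of all tested genes. The median exonic length of the list was 7307 bases, against 3216 over all tested genes.

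Among partners of BATF and IRF4, 11 of 13 tested were higher and 2 lower (median 0.30), with both GF libraries above both SPF libraries in 5 and below in 0, where all tested genes gave 16.8% and 16.4%. The median was 0.18 without SPF replicate 1, 0.17 without GF replicate 2, 0.46 without SPF replicate 2 and 0.19 with the length trend removed. Swap70 and Def6, related proteins that bind IRF4 and limit its action, measured 162 and 222 CPM in GF against 97.3 and 127 CPM in SPF, and 283 and 238 CPM in GF against 215 and 207 CPM in SPF. The AP-1 gene Fosl2 measured 72.8 and 103.6 CPM in GF against 61.7 and 69.8 CPM in SPF, and Junb, 358 and 548 CPM in GF against 197 and 415 CPM in SPF, overlapped.

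In the MYC network, 11 of 14 tested genes were higher and 3 lower (median 0.24), with both GF libraries above in 6 and below in 1, beside 16.8% and 16.4% of all tested genes. The median was 0.13 without SPF replicate 1, 0.38 without SPF replicate 2 and 0.44 without GF replicate 1. Usp28, a deubiquitinase that stabilises MYC, measured 72.2 and 73.0 CPM in GF, against 29.0 and 40.5 CPM in SPF (log2 fold change 1.06, SE 0.24, edgeR unadjusted p = 0.0065, adjusted p = 0.855). Mycn, the neural paralog, was rare, at 33 and 18 counts in GF (2.25 and 1.29 CPM) against 4 and 4 counts in SPF (0.35 and 0.28 CPM). The MYC antagonist gene Mxd1 had 0.40 (SE 0.25) and Mlxip, which encodes the glucose-responsive relative MondoA, 0.62 (SE 0.42).

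Of 24 genes that MYC activates, 18 had lower and 6 had higher fitted values in GF, where 49.7% of all tested genes had higher ones, with a median of -0.13. The 2 GF libraries were below the 2 SPF libraries in 8 and above them in 2, beside 16.4% and 16.8% of all tested genes. The nucleolar genes Nop16 and Npm1 measured 27.2 and 20.7 CPM in GF against 48.1 and 28.8 CPM in SPF, and 598 and 532 CPM in GF against 945 and 627 CPM in SPF. The spermidine synthase gene Srm overlapped (-0.60, SE 0.32), and Cad, the long gene of pyrimidine synthesis, was higher at 138 and 178 CPM in GF against 74.5 and 131 CPM in SPF. With the length trend removed the median was -0.09.

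**Figure D5:**
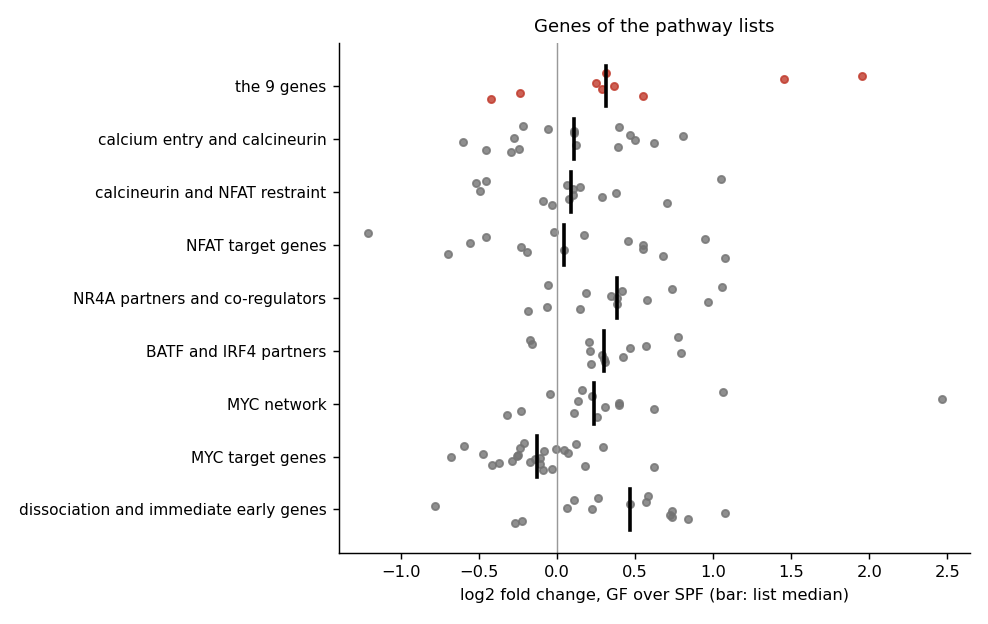
Log2 fold change of GF over SPF (horizontal axis) of each tested gene in the 9 genes (red) and in 8 lists of related genes (grey), with a black bar at each list's median. The medians run from -0.13 for MYC target genes to 0.47 for dissociation and immediate early genes, and every list has genes on both sides of 0.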

How the data were processed

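The 4 samples are gBT-I cells, 2 libraries from GF and 2 from SPF recipients. The authors deposited unnormalized read counts by gene symbol in 1 column for each library, and the labels tie each column name to its sample. The submitters' processing notes name the build mm10 and, with no role given, CASAVA, TopHat, Picard, featureCounts, Subread and edgeR. Neither settings nor annotation is given in the sources used here. The kit does not mark strand, so reads of overlapping genes cannot be told apart.

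Genes were tested with edgeR 4.0.16 (R 4.3.3): TMM scaling, filterByExpr (11271 genes), and the two-sided quasi-likelihood test of GF over SPF with no covariate, with Benjamini-Hochberg adjustment over all tested genes at 0.05. SE is the log2 fold change over the square root of F. CPM per gene uses TMM-scaled library sizes, marker sums use plain totals, and log2 differences between libraries use a prior count of 2. Lengths are exon unions of GENCODE M21 (GRCm38, the assembly of mm10) and covered 99.3% of tested genes. The step was tested on simulated data.

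The 9 genes and all lists were chosen with earlier results of these data known. Named are the 9, up to 4 genes per list by smallest p, the most abundant gene of each list of other cells, and the 3 nearest patterns per NR4A gene; a gene that the rule names is not reported here. A few others were named after their values were seen: Nfatc4, Il2 and Cd68, marker genes at or near 0, and those marked in the text. Equal replicate numbers are not said to mark a shared animal or day, so libraries were treated as unpaired. Alternatives covered scaling, filters, DESeq2 1.42.0, limma-voom (limma 3.58.1), the edgeR exact test, a replicate block, transcript length, removal of genes of other cells, thresholds and each library left out. Figures used matplotlib 3.10.9.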

Additional observations from a re-analysis of the deposited data

How the results depend on the processing

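By edgeR's quasi-likelihood test 0 genes were called higher and 0 lower, with 245 and 118 at an unadjusted p under 0.05. DESeq2 and the edgeR exact test each called 8 higher and 1 lower, none of them among the 9 genes. With each library left out, counts ran from 0 to 805 higher and from 0 to 524 lower (both highest without SPF replicate 2), and the median log2 fold change of the 9 genes ran from -0.011 without GF replicate 2 to 0.66 without SPF replicate 2, against 0.32 in the full fit and 0.11 with the length trend removed. Other scalings, filters, limma-voom, the length trend alone, removal of genes of other cells and adjusted p thresholds of 0.1 and 0.01 called 0 in either direction.

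With the replicate number as a block, 786 genes were called higher and 420 lower (6.97% and 3.73% of tested genes), and with the block and the length trend removed 227 and 98 (2.01% and 0.869%). Nr4a1 (1.37, SE 0.24, edgeR adjusted p = 0.00148) and Nr4a2 (1.76, SE 0.31, adjusted p = 0.002) were called higher with the block, and also with block and length (adjusted p = 0.0211 and 0.0257). The other 7 were not. Deviations of same-numbered libraries from their group means correlated at 0.71 across 11271 genes, which are not independent replicates, but no label says what the numbers mark. The design alone therefore does not pair the libraries.

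Of 144 values of the 9 genes under alternatives, 138 kept their direction and 6 reversed, all with a library left out: Nr4a2 (-0.011) without GF replicate 2, Nr4a3 without SPF replicate 1 (-0.45) and without GF replicate 2 (-0.79), Nfatc2 in those same settings (-0.022 and -0.088), and Myc without SPF replicate 1 (0.039). The cause was not tested. Over the left-out fits Nr4a2 ran from -0.011 to 3.01, Nr4a3 from -0.79 to 2.31, Nfatc2 from -0.088 to 0.89 and Myc from -0.47 to 0.039. Depth limits Nr4a3, which rests on 3 counts in SPF replicate 1.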
